A study of Mus musculus with 24 samples.

Results

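The chemokines and their receptors were followed through mouse pregnancy at the maternal-fetal interface (MFI), the zone where maternal decidua meets the fetal placenta. The members were chosen by name, as every gene of the deposited count table whose symbol begins as a CC, CXC, CX3C or XC chemokine, as a receptor of these ligands, or as an atypical chemokine receptor. They numbered 62 of 55401 genes, after 2 CXC ligand genes that also match the pattern were left out and not analysed here. By name they held 37 ligands, of which 24 were CC, 11 CXC, 1 CX3C and 1 XC, 19 signalling receptors, 4 atypical receptors and 2 pseudogenes. The 24 RNA-seq libraries came from wild-type (WT) C57BL/6 mice and from mice homozygous for a CRISPR-Cas9 deletion in C1qtnf6 (KO), sampled at 4 stages named by gestation day, from gd10.5 over gd14.5 and gd16.5 to gd19.5. Each of the 8 groups had 3 libraries. C1qtnf6 encodes the secreted protein CTRP6, and the deletion was present in the whole animal of an inbred line bought from a breeder. The labels name no litter, dam or collection date, so p-values measure the spread between these libraries, which may be in part technical.

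Chemokines are small secreted proteins that guide migrating cells. They bind heparan sulphate on cell surfaces and matrix, and signal through receptors coupled to inhibitory G proteins, whereas atypical receptors take up ligands without that coupling. In the pregnant uterus they are known for placing natural killer cells, macrophages and other leukocytes in the decidua and for acting on trophoblast and blood vessels.

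The subfamilies are named for the spacing of the first cysteines of the mature protein. The coding stretches around these cysteines are shown for 1 CC ligand, for the pair of CXC ligands that moved most between stages, and for the CX3C ligand, with the cysteine codons in capitals. They were read from GENCODE M21 transcripts on GRCm38. The Ccl6 stretch lies at chr11:83589371-83589406 (minus strand), the Cxcl12 stretch at chr6:117171493-117171531 (plus strand) and the Cx3cl1 stretch at chr8:94778036-94778080 (plus strand), each within an exon. The Cxcl14 stretch runs over an intron between chr13:56295900 and chr13:56296116 (minus strand).
Ccl6: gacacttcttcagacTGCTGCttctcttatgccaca
Cxcl12: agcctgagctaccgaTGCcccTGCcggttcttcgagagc
Cxcl14: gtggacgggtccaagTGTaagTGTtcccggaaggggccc
Cx3cl1: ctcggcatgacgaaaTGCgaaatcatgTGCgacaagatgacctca
The codons are adjacent in Ccl6, separated by a single codon in both CXC ligands and by a longer run in Cx3cl1.

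Libraries held between 20975717 and 37383108 assigned reads, with a median of 26046112, so that 3 counts corresponded to 0.0803 to 0.143 CPM, the unit of read counts scaled for library size in which levels are given here. C1qtnf6 stood at 64.7 to 168 CPM in the WT libraries and at 0.0341 to 2.05 CPM in the KO libraries. Marker lists of trophoblast, decidual stroma, endothelium, macrophages and natural killer (NK) cells were all present in every group. Y-linked transcripts, which fetal tissue of males contributes, exceeded 10 CPM in 9 of 24 libraries. At gd10.5, KO replicate 2 stood apart from the other 5 libraries. Its spongiotrophoblast and glycogen cell markers summed to 10700 CPM, against 887 and 1170 CPM in the other KO libraries and 1470 to 2110 CPM in WT. Its NK cell markers summed to 353 CPM against 752 and 857 CPM, and its Y-linked transcripts to 71.1 CPM against 0.0374 and 0.311 CPM. Results that rest on this library are therefore given with and without it. These are bulk measurements, in which fewer cells of a type and less RNA per cell cannot be told apart.

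Only a few members carried most of the chemokine signal. In all, 40 of 62 members passed the filter on low counts over the 24 libraries, namely 22 ligands, 14 receptors and the 4 atypical receptors. Levels of different genes were compared as CPM per kilobase of exon, averaged over the 24 libraries. On that scale Cxcl14, a CXC ligand made by stromal and epithelial tissues, led with 122 CPM per kb, above 98.3% of the genes that passed the filter. Ccr1l1, a receptor-like relative of Ccr1, followed with 87.3 CPM per kb. The next were Cxcr2, the main neutrophil receptor for CXC ligands, at 24.5, Ackr3, an atypical receptor that takes up Cxcl12, at 15, Ccl27a at 11.4 and Cxcl12 at 9.74 CPM per kb. The remaining members had means below 5 CPM per kb, led by Cx3cl1 at 4.47, Ccl6 at 3.15, Ackr2 at 3.13, Cxcr4 at 2.63, Ackr4 at 2.20 and Ccl2 at 1.82 CPM per kb. This order is one of means over stages that differed widely. In WT at gd10.5 Ackr4 stood at 8.52 CPM per kb, above Cxcl12 at 0.559. Summed over all members, libraries held between 420 and 1390 CPM, and Cxcl14 alone gave 79.8% to 91.1% of the ligand CPM at gd10.5 but 8.64% to 23.2% at gd16.5.

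**Figure D1:**
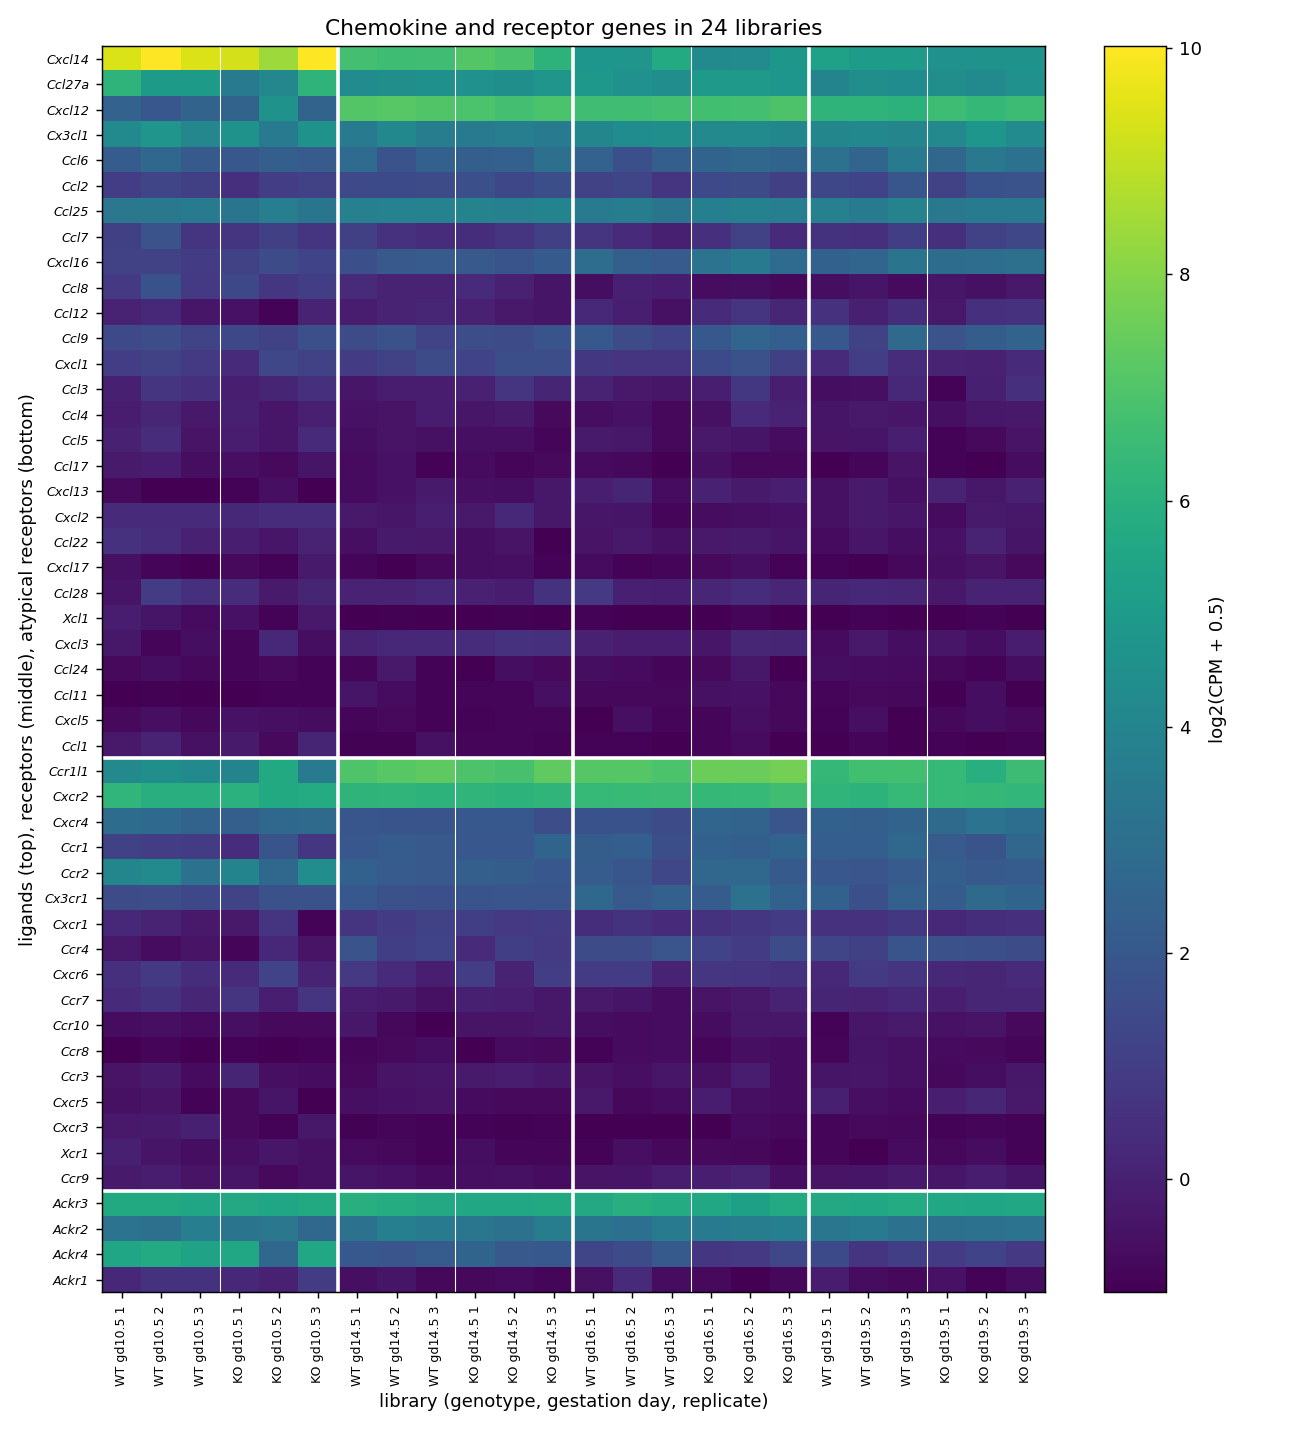
Heat map of log2(CPM + 0.5), by colour, for 49 members with more than 4 counts in at least 1 library, with ligands, receptors and atypical receptors in blocks from top to bottom ordered by mean CPM per kb, and the 24 libraries in columns by stage, genotype and replicate. The step from gd10.5 to gd14.5 is visible in Cxcl14 and Ackr4, which are lower, and in Cxcl12 and Ccr1l1, which are higher, and the column of KO gd10.5 replicate 2 differs from its neighbours in these rows.

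At the other end, 11 members had no more than 3 counts in any library. They were the receptor Ccr6 and the ligands or pseudogenes Ccl19, Ccl19-ps1, Ccl19-ps3, Ccl20, Ccl21a, Ccl21b, Ccl21d, Ccl26, Ccl27b and Cxcl15, and Cxcl11 reached 4 counts. For several of them the counting itself limits what can be seen, because reads that map to more than 1 place were left out. Of the windows of 150 bases, the read length, along the longest transcript, 100% were shared exactly with another gene's transcript for Ccl21b and Ccl19-ps3, 97.5% for Ccl27b, 95.4% for Ccl21d, 33.7% for Ccl21a and 35.4% for Ccl27a. The share was 39.3% for Cxcl11 and 29.2% for Ccl19. The 3 Ccl21 genes, whose product draws Ccr7-bearing cells into lymphatics, show how close such copies are. Their coding sequences of 399 bases differ from that of Ccl21a at 2 positions each, T84A and C194T in Ccl21b and the same substitutions in Ccl21d, counted from 1 at the first base of the start codon. Coding bases 37 to 126 are printed with the position that differs in capitals. These lie, with an intron between, at chr4:42773705-42773882 (minus strand) for Ccl21a, chr4:42255803-42255980 (plus strand) for Ccl21b and chr4:41903721-41903898 (plus strand) for Ccl21d.
Ccl21a: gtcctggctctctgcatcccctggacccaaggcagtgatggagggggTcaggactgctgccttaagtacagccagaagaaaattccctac
Ccl21b: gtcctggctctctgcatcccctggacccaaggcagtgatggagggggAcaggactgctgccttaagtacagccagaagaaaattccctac
Ccl21d: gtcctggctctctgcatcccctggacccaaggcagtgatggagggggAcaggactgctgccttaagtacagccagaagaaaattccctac
Ccl21b and Ccl21d carry the same substitutions, so their coding sequences are identical to each other. A read of 150 bases within the spliced coding sequence, which is longer than the printed stretch, could not be assigned to either. For both, the gene that shared the most windows was Gm13304. The values of Ccl27a, Ccl19 and Cxcl11, and those of the Ccl21 genes, with 2 counts in all for Ccl21a and 0 for Ccl21b and Ccl21d, are uncertain because windows are shared. Overlap with neighbouring genes also touches Cxcl16, of which 18.3% of the exon length is shared with Zmynd15, Ackr1, of which 25.7% is shared with Cadm3, and Ackr4, of which 8.9% is shared with Acad11. Among members with few counts, the share was 41.7% for Cxcl11 with Gm2673, 18.8% for Ccr9 with Gm17021 and 18.7% for Xcl1 with Gm20743. Reads in shared exons were not assigned.

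The comparison of stages addressed how the chemokine system changes as the placenta matures. Between gd10.5 and gd14.5 in WT mice, 19 of the 35 members tested changed by more than 2-fold at an adjusted p below 0.05 in edgeR's quasi-likelihood test, 7 upward and 12 downward. That is 20% of the members tested called higher against 10.7% of all 18523 genes tested, and 34.3% called lower against 11.6%. The median log2 fold change was -0.29 over the members and -0.01 over all genes. The members that passed the filter did so in part through the stage at which they were high, so these shares describe the tested members and not all 62.

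Among the ligands, Cxcl12 rose the most. Cxcl12 attracts cells that bear Cxcr4, and is made by stromal and endothelial cells. It was at 5.06, 3.46 and 5.2 CPM in the WT libraries of gd10.5 and at 134, 143 and 131 CPM in those of gd14.5. The values were 98.3, 101 and 107 CPM on gd16.5 and 70.6, 71.7 and 67.2 CPM on gd19.5. The gd10.5 libraries lay far below all later ones, and each later stage lay below the one before it without overlap. The log2 fold change over the first step was 4.92 (SE 0.126, adjusted p = 1.88e-11). The later WT steps of Cxcl12, -0.41 and -0.54 on the log2 scale, had adjusted p-values of 0.0107 and 0.00769 and stayed under the 2-fold limit. In the same libraries the spongiotrophoblast and glycogen cell markers summed to 1470 to 2110 CPM at gd10.5 and 23600 to 25600 CPM at gd14.5, with 3 of 5 markers called higher. Labyrinth trophoblast markers summed to 224 to 344 and 486 to 492 CPM, with 3 of 4 tested called higher. Blood endothelium markers summed to 1880 to 2020 and 1310 to 1410 CPM, with 0 of 6 called, and the stroma list, given below, was mostly called lower. The part of these cell types in the change was not tested.

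Cxcl14 moved in the opposite direction. It was at 670, 1020 and 685 CPM in WT on gd10.5 and at 105, 95 and 99.8 CPM on gd14.5. It was at 27, 26.7 and 52.5 CPM on gd16.5 and reached 39.6, 32.5 and 34 CPM on gd19.5. The libraries of the first 3 stages did not overlap, whereas those of gd16.5 and gd19.5 did. Cxcl14 fell by 2.98 on the log2 scale at the first step (SE 0.241, adjusted p = 5.63e-07) and by 1.5 at the second (SE 0.233, adjusted p = 0.000682), and was the only member called at the second step in WT. Genes of decidual and uterine stroma summed to 6720 to 14200 CPM at gd10.5 and 4720 to 4790 CPM at gd14.5 in WT, with 6 of 8 called lower and 1 higher, and their part in the fall of Cxcl14 was not tested.

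Further CC ligands fell at the first step. Ccl8, grouped here with the monocyte-attracting ligands, fell by 1.59 on the log2 scale (SE 0.375, adjusted p = 0.00298) from 1.27, 2.94 and 1.31 CPM to 0.763, 0.525 and 0.547 CPM. The stages did not overlap, although these values correspond to few reads. Ccl22, Ccl5, Ccl3, Ccl27a and the CXC ligand Cxcl2 were also called lower, by 1.05 to 1.44 on the log2 scale. Upward calls among ligands were those of Cxcl3 and Cxcl16. Cxcl3, a neutrophil-attracting ligand, was at 0.31, 0.054 and 0.169 CPM at gd10.5 and at 0.553, 0.719 and 0.715 CPM at gd14.5, and rose by 1.93 on the log2 scale (SE 0.455, adjusted p = 0.00288). Cxcl16, which exists as a membrane-bound and a shed form, rose by 1.08 on the log2 scale (SE 0.281, adjusted p = 0.00523).

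The CC receptors diverged. Ccr2, the receptor for Ccl2, was at 16, 19 and 8.5 CPM at gd10.5 and at 4.82, 3.98 and 3.75 CPM at gd14.5, and fell by 1.79 (SE 0.275, adjusted p = 0.00012). All its gd10.5 libraries lay above all later WT libraries. Ccr7, the lymph node homing receptor, fell by 1.30 on the log2 scale (SE 0.304, adjusted p = 0.00268). Ccr1, a receptor of inflammatory CC ligands, rose instead, from 1.79, 1.49 and 1.44 CPM to 3.53, 4.17 and 3.7 CPM, by 1.28 on the log2 scale (SE 0.209, adjusted p = 0.000196). Its gd10.5 libraries lay below every later WT library.

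NK cell markers moved with the receptors that fell. All 10 NK cell markers were called lower at this step in WT, and their sum went from 590 to 851 CPM at gd10.5 to 148 to 197 CPM at gd14.5. The macrophage and monocyte list was not called in a common direction, with 1 of 9 markers higher and 2 lower, and its sum was 588 to 688 CPM at gd10.5 and 777 to 892 CPM at gd14.5. The neutrophil list summed to 78.5 to 167 CPM at gd10.5 and to 24.4 to 28.9 CPM at gd14.5, with 2 of its 4 tested markers called lower and 1 higher, and with Ly6g and Ngp at 0 in the WT libraries of gd10.5. T cell markers summed to at most 9.96 CPM in any library, and 2 of 3 tested were called lower. The part of these cell types in the changes of Ccr2 and Ccr1 was not tested.

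Ccr1l1 rose from a level that was already well above the detection limit. It was at 17.8, 22.2 and 18.9 CPM in WT on gd10.5 and at 125, 143 and 154 CPM on gd14.5. Values of 137, 136 and 118 CPM followed on gd16.5, and of 81, 103 and 101 CPM on gd19.5. The gd10.5 libraries lay below all others, and from gd14.5 onward this gene had the highest level per kilobase of all members in WT, with a mean of 121 ± 12.4 CPM per kb (SD, n = 3) at gd14.5. It rose by 2.84 on the log2 scale (SE 0.122, adjusted p = 2.68e-09). Ccr4, the receptor for Ccl17 and Ccl22, rose by 3.16 (SE 0.398, adjusted p = 2.33e-05), from 0.344, 0.135 and 0.254 CPM to 3, 1.55 and 1.85 CPM, while its ligand Ccl22 fell. Cxcr1 rose by 1.43 on the log2 scale (SE 0.259, adjusted p = 0.000439). Cxcr2, by contrast, was high at every stage, at 60.4 to 76 CPM in WT on gd10.5 and 68.3 to 73.6 CPM on gd14.5, then 83.6 to 89.6 CPM and finally 70 to 83 CPM on gd19.5, and was not called at any step.

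Of the atypical receptors 2 fell and none was called higher. Ackr4, which removes Ccl19, Ccl21 and Ccl25, was at 44.8, 52.6 and 40.1 CPM in WT at gd10.5, at 3.58, 3.23 and 4.08 CPM at gd14.5 and at 1.08 to 3.89 CPM afterwards. Every WT library of the first stage lay above every later one. Ackr4 fell by 3.66 on the log2 scale (SE 0.237, adjusted p = 9.77e-08). Ackr1, a scavenger on venules and red cells, fell by 2.25 (SE 0.559, adjusted p = 0.00405) at levels of at most 1.05 CPM in WT. Ackr3 and Ackr2 were not called, with log2 fold changes of 0.20 (SE 0.0986) and 0.18 (SE 0.201).

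**Figure D2:**
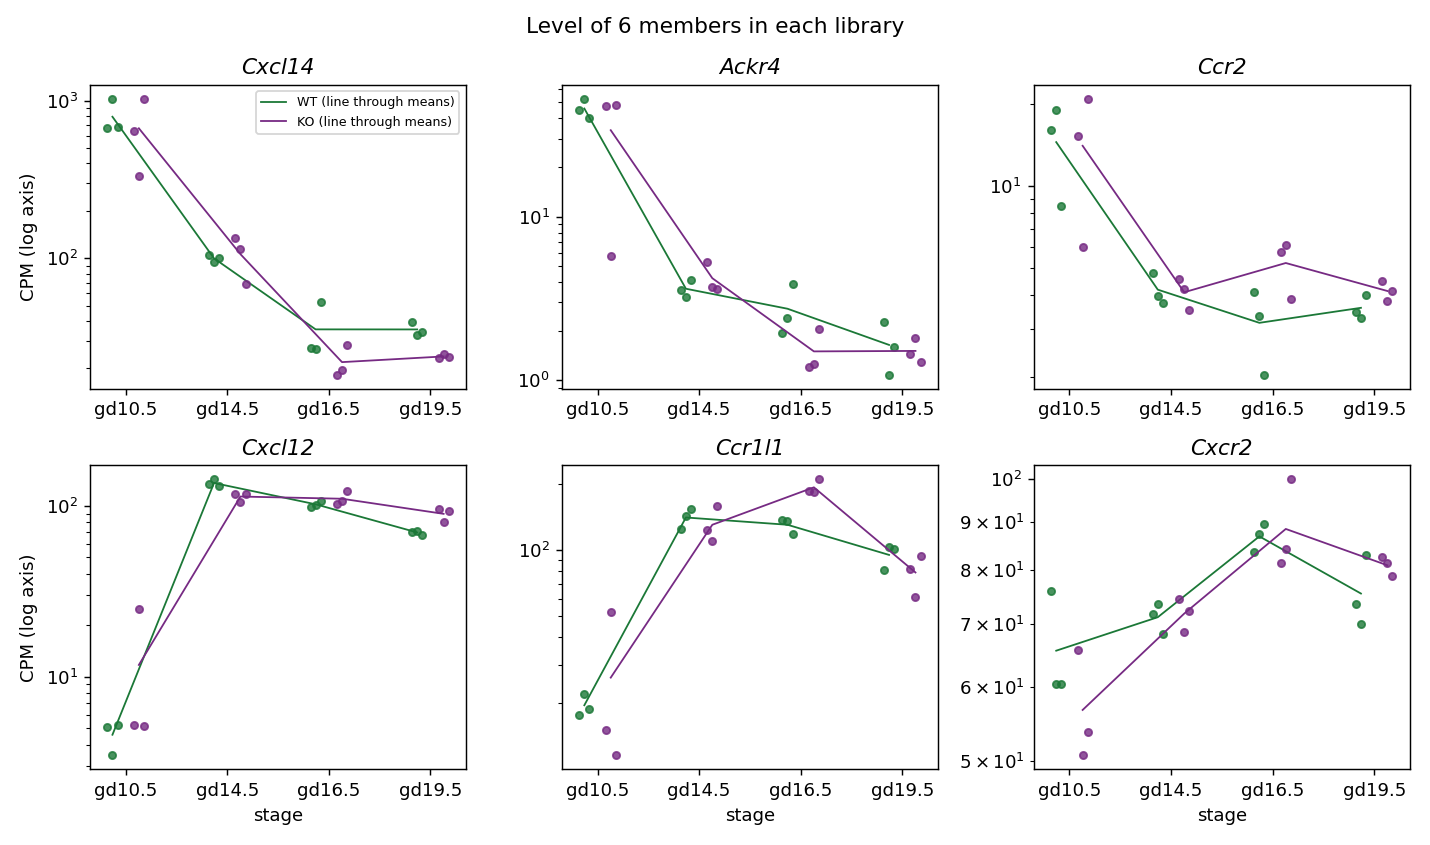
Level of 6 members in CPM on a log axis at the 4 stages, each point a library, WT in green and KO in purple, with lines through the means of the 3 libraries of a group. Cxcl14, Ackr4 and Ccr2 have their highest means at gd10.5, Cxcl12 and Ccr1l1 lie lowest at gd10.5, and Cxcr2 stays between 50.7 and 100 CPM throughout, and in the panels of Cxcl14, Ackr4, Cxcl12, Ccr1l1 and Ccr2 the purple point of KO replicate 2 at gd10.5 lies outside the range of the other 5 libraries of that stage.

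The promoters of Cxcl14 and Cxcl12 are shown because these were the ligands that moved most, in opposite directions. The 250 bases before the RefSeq start of each gene are printed on GRCm38.p6, 5′ to 3′ on the gene's strand, with matches to 8 short motifs in capitals. Cxcl14 lies at chr13:56296552-56296801 (minus strand) and Cxcl12 at chr6:117168285-117168534 (plus strand).
Cxcl14: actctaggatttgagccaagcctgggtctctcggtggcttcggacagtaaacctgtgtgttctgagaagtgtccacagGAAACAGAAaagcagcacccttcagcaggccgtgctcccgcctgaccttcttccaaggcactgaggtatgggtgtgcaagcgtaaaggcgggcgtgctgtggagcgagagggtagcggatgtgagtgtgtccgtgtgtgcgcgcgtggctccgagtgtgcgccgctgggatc
Cxcl12: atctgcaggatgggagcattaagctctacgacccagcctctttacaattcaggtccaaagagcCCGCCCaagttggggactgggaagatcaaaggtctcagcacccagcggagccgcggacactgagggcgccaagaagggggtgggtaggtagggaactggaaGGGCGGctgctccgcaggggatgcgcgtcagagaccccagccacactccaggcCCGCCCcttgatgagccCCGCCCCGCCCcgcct
Both hold many CpG dinucleotides, 16 in Cxcl14 and 14 in Cxcl12, against a median of 6 over 32851 promoters. The motifs were searched on both strands, and were TATAAA for the core promoter box of that name, CCAAT for nuclear factor Y, GGGCGG for Sp1, TGANTCA for AP-1, AGATAA for erythroid-type zinc fingers, GGGANTTTC for NF-kB, GAAANNGAA for interferon elements and ACGTG for hypoxia elements. Cxcl12 holds 5 matches to GGGCGG, the last 2 of which overlap, and Cxcl14 holds 1 match to GAAANNGAA. These motifs occur in 32.7% and 7.13% of all promoters, so the matches are a description and not evidence of binding. Promoters of 45 of 62 members were in the RefSeq table. Over their 52 promoters the NF-kB letters occurred in 5, or 9.62%, against 0.941% of all promoters. The TATAAA letters occurred in 26.9% of them against 12.4% of all, and GGGCGG in 15.4% against 32.7%, while the other 5 motifs occurred in 9.62% to 28.8% against 6.75% to 33.8%. Those with the NF-kB letters were the promoters of Cxcl1, Cxcl2, Cxcl3, Cxcr2 and Ccr3, and the first 3 are neighbouring copies of 1 ancestral gene and not independent.

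The KO mice gave the same comparison in libraries that share none with the WT. From gd10.5 to gd14.5, 12 of 37 members tested were called in KO, 5 higher and 7 lower, against 8.53% of 18467 genes called higher and 10.2% called lower. The 12 were all among the 19 called in WT. Of the 18 WT calls that could be tested in KO, 17 had the same direction, the exception being Ccl3. Without KO gd10.5 replicate 2, 19 of 40 members tested were called, 8 higher and 11 lower, against 12.2% of 19003 genes called higher and 13.3% called lower, and 16 of the 19 WT calls were among them. Single libraries decided some calls. Cxcl12 in KO was at 5.23, 24.8 and 5.12 CPM at gd10.5 and 118, 105 and 117 CPM at gd14.5, which gave 3.27 on the log2 scale (SE 0.49, adjusted p = 0.000535), and 4.45 (SE 0.13, adjusted p = 3.89e-09) without replicate 2. Ackr4 in KO was at 47.2, 5.75 and 48.4 CPM at gd10.5 and 5.32, 3.71 and 3.6 CPM at gd14.5, and fell by 3.01 (SE 0.596, adjusted p = 0.00225) with and by 3.50 (SE 0.202, adjusted p = 2.37e-07) without replicate 2. Cxcr1 was not called in KO with all libraries (1.55, adjusted p = 0.0506) and was called without replicate 2 (2.95, adjusted p = 0.000299). The KO calls of Cxcl3, Ccr4 and Ccr1 were lost when other single libraries were left out, at adjusted p-values up to 0.149, 0.0589 and 0.0999. For Ccr1 these libraries were KO gd10.5 replicates 1 and 3 and KO gd14.5 replicate 3, for Ccr4 they were KO gd10.5 replicate 3 and KO gd14.5 replicate 2, and for Cxcl3 any library other than KO gd10.5 replicate 2.

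**Figure D3:**
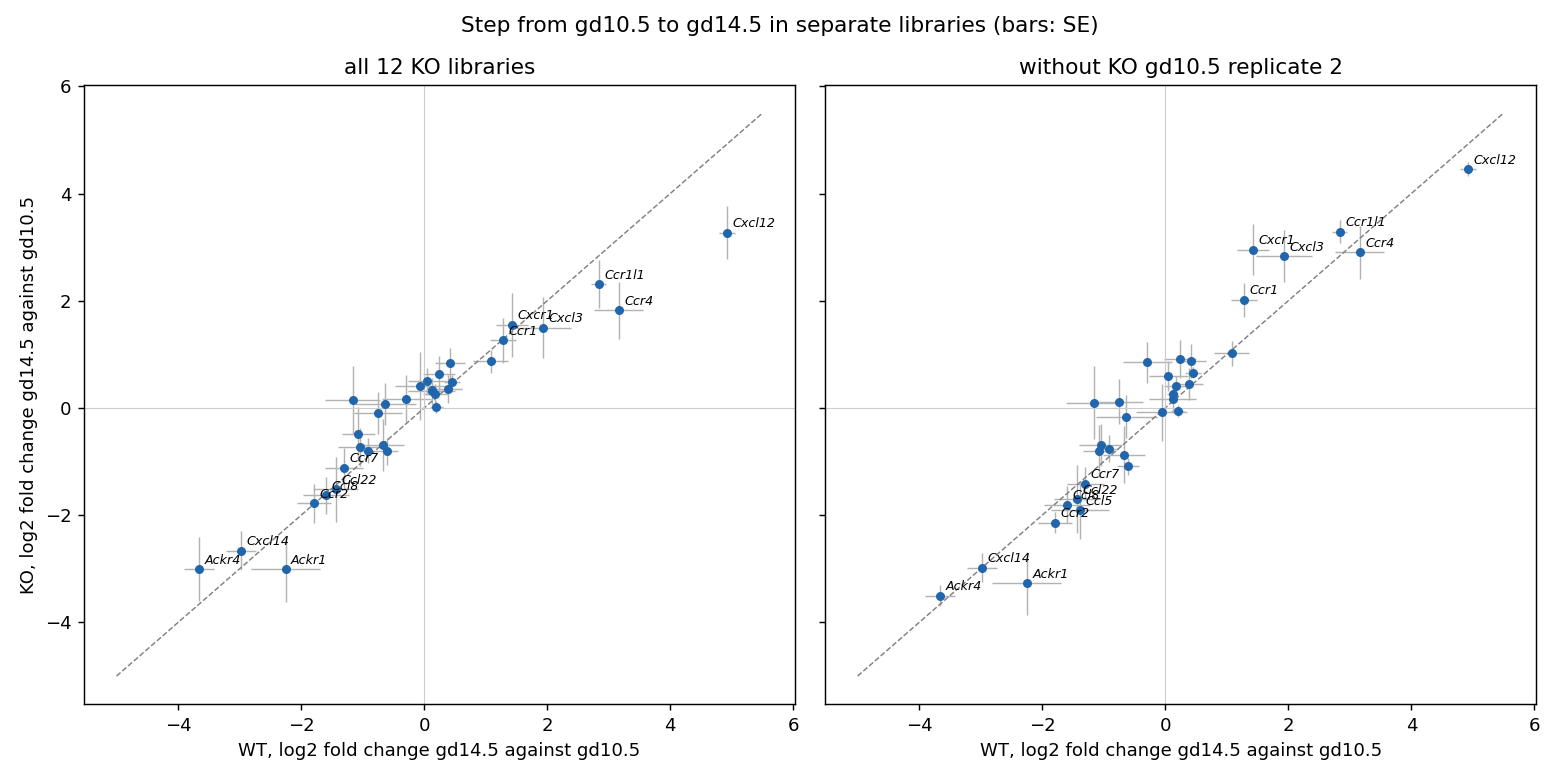
Log2 fold change from gd10.5 to gd14.5 in WT (horizontal) against KO (vertical) for the members reported here that were tested in both, with all 12 KO libraries on the left and without KO gd10.5 replicate 2 on the right, with bars for the SE and a dashed line of equal change. Cxcl12 lies below the line on the left, at 4.92 and 3.27, and nearer to it on the right, at 4.92 and 4.45.

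After gd14.5 the members moved little. From gd14.5 to gd16.5 in WT 0 of 35 members tested were called higher and 1 lower, Cxcl14, against 3.04% and 2.55% of genes. In KO, Cxcl16 rose by 1.34 on the log2 scale (SE 0.2, adjusted p = 0.00178), from 3.78, 3.12 and 3.87 CPM to 8.77, 11.6 and 6.75 CPM. In KO, Ccl8 fell by 1.92 and Cxcl14 fell by 2.27 on the log2 scale, so 1 member was called higher and 2 lower, against 4.78% and 2.76% of genes. From gd16.5 to gd19.5 in WT, Ccr7 was the 1 member called higher and 0 were called lower, against 1.2% and 0.939% of genes. It was at 0.331, 0.265 and 0.146 CPM at gd16.5 and at 0.598, 0.56 and 0.668 CPM at gd19.5, without overlap (log2 fold change 1.26, SE 0.358, adjusted p = 0.0486). That call held when WT gd10.5 replicate 2 or 3 was left out and was lost, at adjusted p-values of 0.0519 to 0.156, when any other single WT library was. In KO, Cxcl1, a neutrophil-attracting ligand, was the 1 member called lower and 0 were called higher, against 0.439% and 0.255% of genes. It was at 2.29, 2.84 and 1.6 CPM at gd16.5 and at 0.568, 0.512 and 0.784 CPM at gd19.5, and fell by 1.85 (SE 0.373, adjusted p = 0.0469). The call was lost when any single KO library of gd14.5 or gd19.5, or replicate 1 or 2 of gd16.5, was left out. Neither of these late calls was made in the other genotype, and the interaction test given further on did not separate them.

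Set side by side per kilobase in WT, ligands and receptors grouped in the same axis did not always run in parallel. At the step to gd14.5, Cxcl3 and Cxcr1 were both called higher and Ccl8 and Ccr2 both lower. Their axes group genes by the cells attracted, so these are not taken as matched pairs of ligand and receptor. Cxcr2, in the same axis as Cxcl3, was not called at this step. At gd10.5 Cxcl12 stood at 0.559 ± 0.119 CPM per kb (SD, n = 3), below its receptor Cxcr4 at 3.36 ± 0.485 and its scavenger Ackr3 at 14.7 ± 1.23 CPM per kb. At gd14.5 Cxcl12 stood at 16.7 ± 0.774 CPM per kb, above Cxcr4 at 1.76 ± 0.0763 and within the spread of Ackr3 at 16.7 ± 1.65 CPM per kb. Cxcr4 itself went from 6.85, 6.24 and 5.12 CPM at gd10.5 to 3.34, 3.1 and 3.11 CPM at gd14.5 and was at 4.78, 4.48 and 5.22 CPM at gd19.5. These steps, -0.92 (adjusted p = 0.00015) and, from gd16.5 to gd19.5, 0.82 (adjusted p = 0.00694) on the log2 scale, stayed under the 2-fold limit. In the axis of neutrophil-attracting CXC ligands the receptor Cxcr2, at 21.5 ± 2.95 to 28.5 ± 1.0 CPM per kb, exceeded the ligands Cxcl1, Cxcl2, Cxcl3 and Cxcl5 at every stage, whose means reached at most 0.967 CPM per kb. Ligands outside the naming rule were not compared. The neutrophil markers summed to 78.5 to 167 CPM at gd10.5 and 24.4 to 28.9 CPM at gd14.5, a step at which Cxcr2 was not called. Which cells carried Cxcr2 was not tested. The fractalkine ligand Cx3cl1 lay above its receptor Cx3cr1 at every stage, at 5.25 ± 1.26 against 0.523 ± 0.0453 CPM per kb at gd10.5 and 4.15 ± 0.209 against 0.913 ± 0.267 at gd19.5. For the lymph node axis and the Ccl20 axis no ligand exceeded 3 counts in any library, while Ccr7 was detected and Ccr6 was not above 3 counts. The lymph node ligands Ccl19 and Ccl21 carry the limit of shared windows given above.

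**Figure D4:**
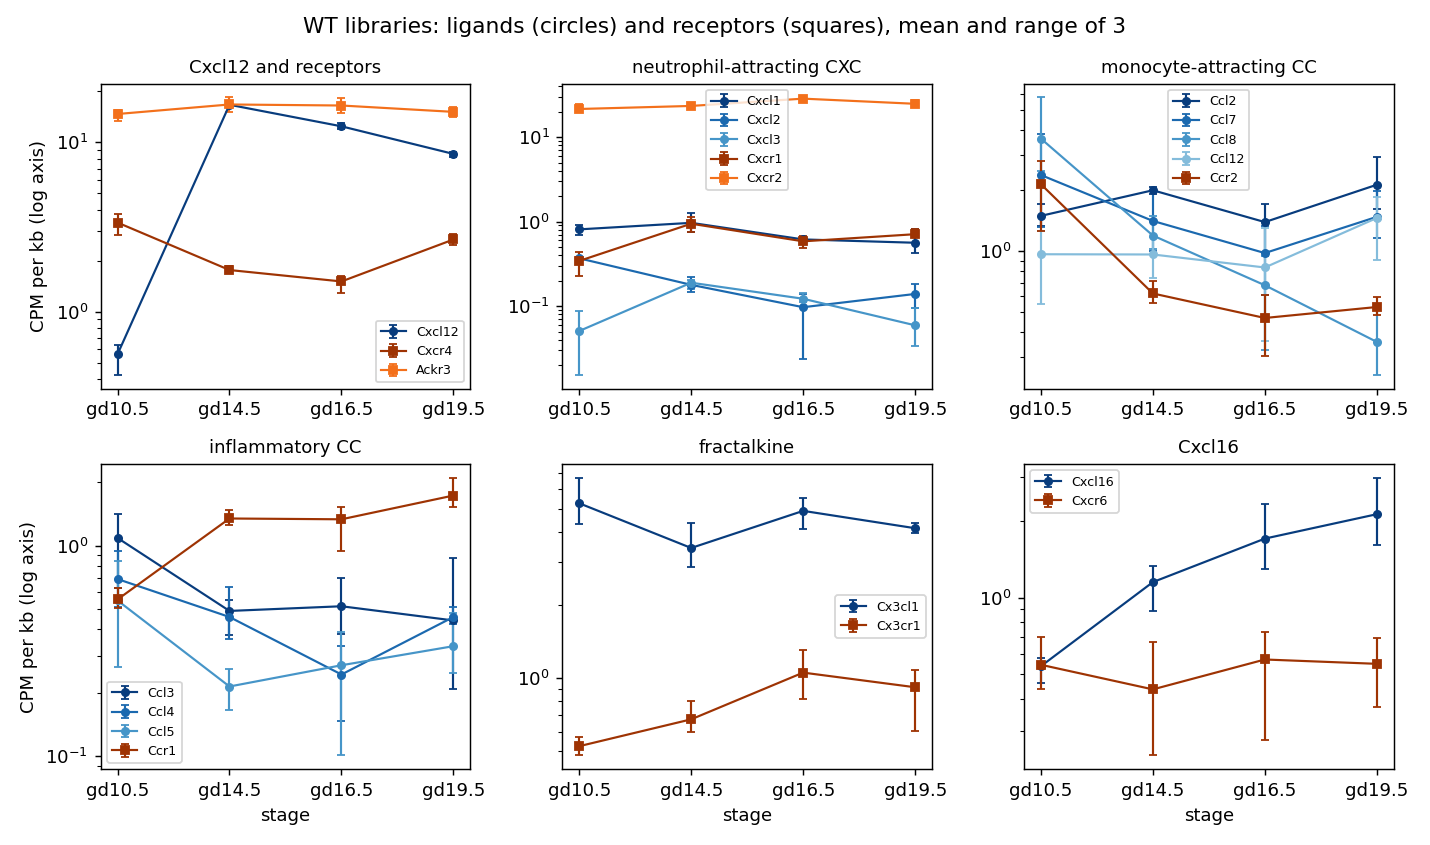
Mean level in CPM per kb, on a log axis, of ligands (circles) and receptors (squares) of 6 axes in the WT libraries at the 4 stages, with bars from the lowest to the highest of 3 libraries. Cxcl12 crosses above Cxcr4 between gd10.5 and gd14.5, Cxcr2 lies above Cxcl1, Cxcl2 and Cxcl3 and Cx3cl1 lies above Cx3cr1 at every stage.

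Genes that act with chemokines were read at the same WT step against the 10.7% of all genes called higher and 11.6% called lower. Of 20 genes for G proteins, kinases, arrestins and leukocyte guanine exchange downstream of the receptors, 8 were called lower and 0 higher at gd14.5, with Rac2, a leukocyte GTPase, at -2.66 and Dock2, its exchange factor, at -2.52 on the log2 scale. Of 9 regulators of G protein signalling, which shorten receptor signals, 4 were called lower and 0 higher, with Rgs2 at -2.14 and Rgs1 at -1.90. Among 9 tested proteases that trim chemokines, 2 rose, Mmp12 by 3.24 and Mmp8 by 1.43, and 2 fell, Mmp9 by 3.11 and Ctsg by 2.43. Of 14 heparan sulphate carriers only Gpc1 was called, higher by 1.71. Of 13 chemokine-like or related genes outside the naming rule only Rarres2, the precursor of chemerin, was called, higher by 1.55. Of 12 tested inducers and inflammatory cytokines, Il6 and Il33 were called lower, by 2.43 and 2.38, and 0 higher. The shares called among the carriers and the genes outside the naming rule lay near or below those over all genes. The NK cell markers given above fell in the same libraries, and their part in the values of the signalling genes was not tested.

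The comparison of genotypes addressed whether loss of C1qtnf6 altered these transcripts. No member was called in KO against WT at any stage by edgeR's quasi-likelihood test at an adjusted p below 0.05 with more than a 2-fold change. In order of stage 34, 32, 28 and 29 members were tested, and the share of all genes called was 0.00572%, 0.0166%, 0.00586% and 0.023%. DESeq2 called 0 members at each stage as well, while over all genes it called 2, 4, 44 and 19 in order of stage. At an unadjusted p below 0.05 there were 0, 4, 9 and 7 members, which is 0%, 12.5%, 32.1% and 24.1% of those tested, against 0.801%, 6.78%, 11.1% and 13.5% of all genes. With 3 libraries a group these counts do not show that the genotypes were alike.

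At gd10.5 the KO libraries overlapped the WT libraries for every member tested, against 1.83% of genes wholly above and 2.35% wholly below. The largest estimate was that of Cxcl12, 1.36 (95% interval -0.20 to 2.92), which was 0.19 (SE 0.222) without KO replicate 2. The KO libraries of Ccr1l1 ran from 11.6 to 52 CPM, replicate 2 being the highest, against 17.8 to 22.2 CPM in WT. Leaving replicate 2 out turned the estimate of Ccr1l1 from 0.42 (SE 0.546) to -0.55 (SE 0.165, adjusted p = 0.999 in edgeR's quasi-likelihood test). At gd14.5, 3 members had all KO libraries above all WT libraries and 1 below. These are 9.38% and 3.12% of the members tested, near the 6.41% and 6.1% of all genes. The first were Ccl3, a ligand of Ccr1, the eosinophil receptor Ccr3, and Cxcl3, with log2 fold changes of 1.01, 0.79 and 0.48 and adjusted p-values of 0.693, 0.751 and 0.741. Cxcl12 was the member below, at 134, 143 and 131 CPM in WT and 118, 105 and 117 CPM in KO (log2 fold change -0.27, SE 0.0649, adjusted p = 0.517).

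At gd16.5, 9 members had all KO libraries above all WT libraries and 0 below. These are 32.1% and 0% of the members tested, against 8.11% and 9.62% of genes. The median log2 fold change over the tested members was 0.34, against 0.01 over all genes. Ccr1l1 was at 137, 136 and 118 CPM in WT and at 186, 183 and 210 CPM in KO (log2 fold change 0.58, SE 0.0932, adjusted p = 0.237). Cxcl1 was at 1.24, 1.11 and 1.12 CPM in WT and at 2.29, 2.84 and 1.6 CPM in KO (log2 fold change 0.97, SE 0.253, adjusted p = 0.378). Cxcr4 was at 2.93, 2.92 and 2.34 CPM in WT and at 5.63, 5.21 and 3.19 CPM in KO (log2 fold change 0.79, 95% interval 0.22 to 1.35, adjusted p = 0.421). The groups were separate for these 3 members, but none passed the adjusted threshold in this test. Among 14 alternatives of the kinds listed in the closing section, 2 put Ccr1l1 below an adjusted p of 0.05, and its log2 fold change stayed at 0.51 to 0.62. Ccl9 and Ccl6, ligands of Ccr1, had log2 fold changes of 0.78 and 0.47 with adjusted p-values of 0.431 and 0.466. The summed levels of 7 of the 15 cell type lists did not overlap between the genotypes at this stage. The spongiotrophoblast and glycogen cell list summed to 20900 to 29200 CPM in WT and 34900 to 38000 CPM in KO, the giant cell list to 16700 to 23800 and 25000 to 29200 CPM, and the decidual and uterine stroma list to 4610 to 4940 and 3720 to 4030 CPM. Dendritic cell markers, at 51.8 to 55.7 and 56.6 to 70.8 CPM, and B cell markers, at 2.09 to 3.31 and 3.36 to 5.03 CPM, also lay wholly higher in KO. Smooth muscle markers, at 504 to 695 and 385 to 465 CPM, and uterine epithelium markers, at 395 to 517 and 309 to 362 CPM, lay wholly lower in sum. The 5 tested uterine epithelium markers had a median log2 fold change of 0.09, so most of them did not share the fall of their sum. The sums of NK cell, T cell, macrophage and neutrophil markers overlapped between the genotypes. Of these lists 3 of 10, 3 of 8, 8 of 9 and 3 of 7 markers passed the filter and were tested. Their median log2 fold changes were -0.26, -0.35, 0.27 and -0.14, so most NK cell markers were not tested at this stage. The authors reported Prf1, a gene of the NK cell list, lower in KO at gd16.5. None of the tested genes of the 15 lists was called here. The part of these cell types in the differences of the members was not tested.

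At gd19.5, 3 members lay wholly above and 5 wholly below. These are 10.3% and 17.2% of the members tested, against 12.8% and 8.58% of genes, so the share above was near that of all genes. Cxcl14 was at 39.6, 32.5 and 34 CPM in WT and at 23.2, 24.6 and 23.7 CPM in KO. The log2 fold change of -0.60 (SE 0.0846, 95% interval -0.78 to -0.41) had an adjusted p of 0.0436, the only member below 0.05 in any genotype comparison by this test, and did not reach the 2-fold limit. That adjusted p rose above 0.05 when any single library was left out, to between 0.0679 and 0.189. Above lay Cxcr4, at 4.78, 4.48 and 5.22 CPM in WT and 6.56, 8.59 and 7.46 CPM in KO (log2 fold change 0.62, 95% interval 0.31 to 0.93, adjusted p = 0.142). Its ligand Cxcl12 also lay above, at 70.6, 71.7 and 67.2 CPM in WT and 95.7, 79.9 and 93.7 CPM in KO (0.33, SE 0.0742, adjusted p = 0.142), as did Cx3cl1 (0.37, adjusted p = 0.319). Below lay, besides Cxcl14, the ligands Cxcl1 (-0.79, adjusted p = 0.342), Ccl28 (-0.39, adjusted p = 0.576) and Ccl25 (-0.28, adjusted p = 0.339), and the receptor Cxcr1 (-0.37, adjusted p = 0.496). The macrophage and monocyte list summed to 877 to 961 CPM in WT and 1040 to 1070 CPM in KO. The lymphatic endothelium list also lay wholly higher in KO, at 154 to 158 and 162 to 205 CPM. The median log2 fold changes of these lists were 0.12 and 0.24, none of their genes was called, and their part was not tested. The sums of the other lists overlapped.

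**Figure D5:**
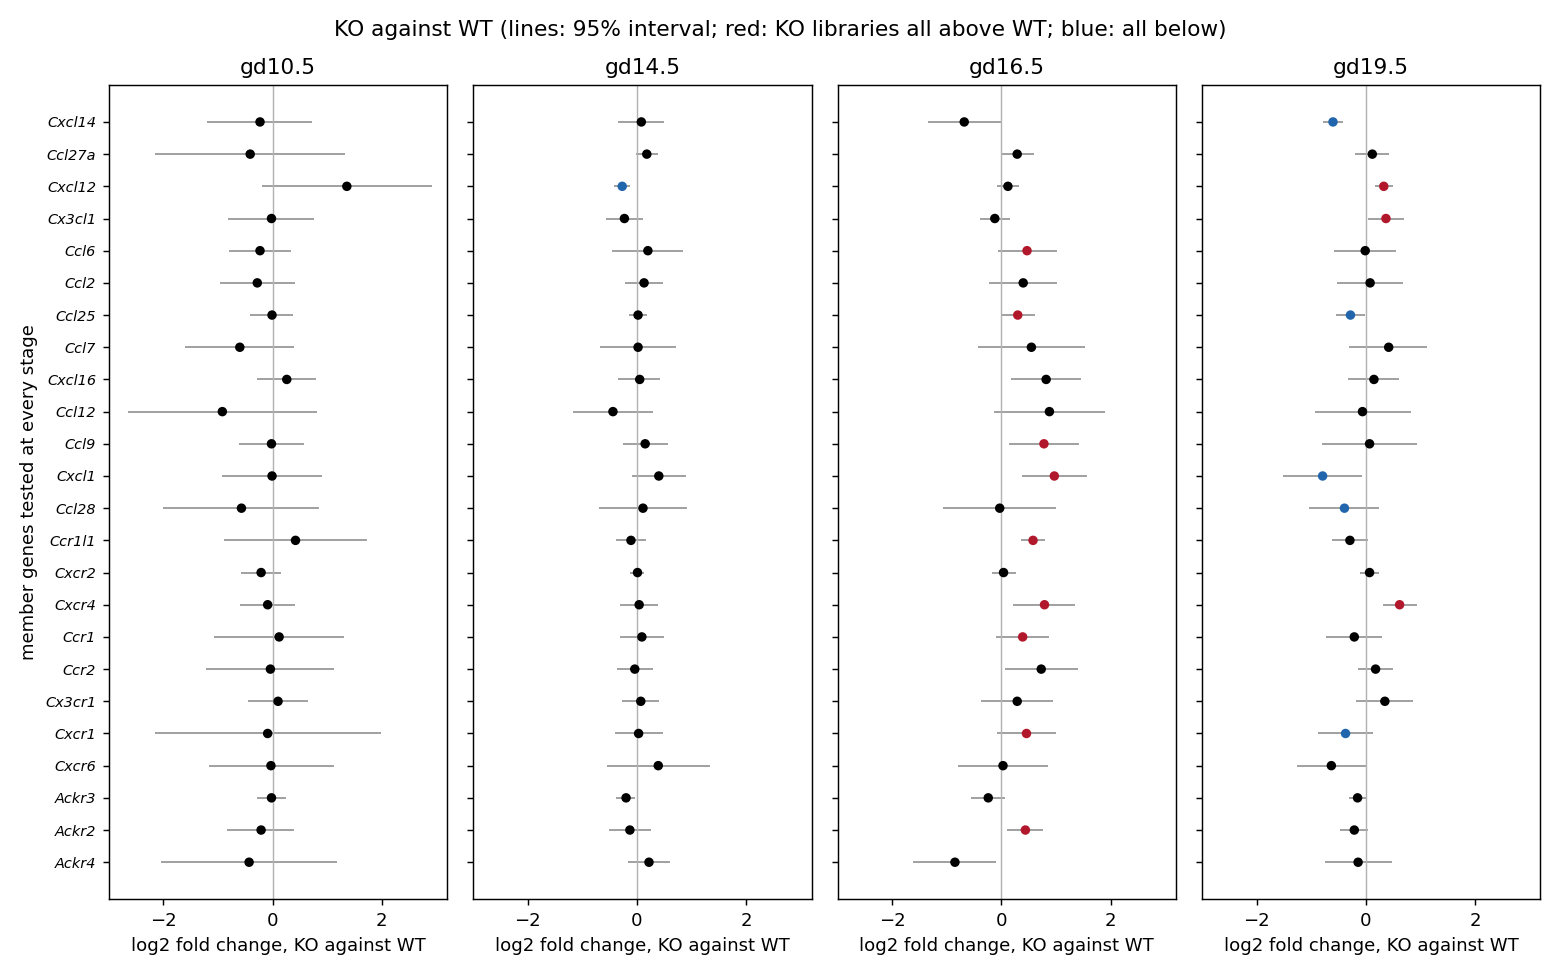
Log2 fold change of KO against WT at each stage for 24 members tested at every stage, with lines for the 95% interval, in red where all KO libraries lay above all WT libraries and in blue where all lay below. Intervals are widest at gd10.5, most points at gd16.5 lie to the right of 0, and Cxcl14 at gd19.5, at -0.60, is the point whose adjusted p was below 0.05.

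Whether the effect of the genotype differed between stages was tested as an interaction over the 24 libraries. Of 40 members tested 0 passed an adjusted p of 0.05 in edgeR's F test, as did 0% of all 19299 genes. At an unadjusted p below 0.05 there were 5 members, 12.5% of those tested, against 7.23% of all genes. Cxcr4 had the smallest p among the members, 0.0104 (adjusted p = 0.604), with log2 fold changes of KO against WT of -0.09, 0.04, 0.79 and 0.62 at the 4 stages in order. Cxcl1 followed with 0.0142 (adjusted p = 0.624), with log2 fold changes of -0.01, 0.40, 0.97 and -0.79. The change of sign of Cxcl1 between gd16.5 and gd19.5 was thus not separated from the spread between libraries once all genes were adjusted for. DESeq2 called 0 members in this test.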

How the data were processed

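Polyadenylated RNA of the MFI was sequenced by the authors as stranded 150-base read pairs. The authors trimmed reads with Trim Galore 0.6.4, aligned them with STAR 2.7.3a to GRCm38 and deposited raw read counts per gene from featureCounts (Subread 2.0.0) at default settings, which ignore strand and leave out reads of several places or genes. Exon lengths came from the same table.

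Members and gene lists were chosen with earlier results of these data known. The values of 1 member that enters the counts are not reported here. The named genes were the 12 members with the highest CPM per kb, up to 6 called in each direction at each WT step with the same sign in KO, up to 5 a direction and stage with separate KO and WT libraries, the genes of each axis by level, and Cxcr4. From the counts, CPM were computed on TMM library sizes of all 24 libraries, for levels only. Tests used edgeR 4.0.16 (R 4.3.3) with quasi-likelihood fits, after a filter at a minimum count of 10 and a total of 15: KO against WT in the 6 libraries of a stage, stage steps in the 12 libraries of a genotype, and the genotype-by-stage interaction in 24. Neighbouring steps share libraries. A call required a Benjamini-Hochberg adjusted p below 0.05 over all genes and a log2 fold change beyond 1, the interaction only the former. Replicate libraries correlated at r of 0.967 to 0.997 (log2 CPM), and their counts differed beyond sampling noise (chi-square per degree of freedom 7.99 to 172). The fits were tested on simulated data. Depth was 20975717 to 37383108 counts, and 3 counts was taken as the detection limit, which covers counting error only. Alternatives were DESeq2 1.42.0, limma 3.58.1 and those listed in the closing section.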

Additional observations from a re-analysis of the deposited data

How the results depend on the processing

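Size factors of DESeq2 in place of TMM left each count of called members as it was, and moved the median of all genes by less than 0.1 on the log2 scale. Requiring at least 10 counts in every library, which leaves fewer members to test, gave 9 calls in WT and 7 in KO at the step to gd14.5, in place of 19 and 12. Without the fold limit 3 members passed in WT at gd16.5, 4 in WT at gd19.5 and 1, Cxcl14, in KO against WT at gd19.5. The WT call at gd19.5 (Ccr7) became 0 with no expression filter, with at least 10 counts in every library, with DESeq2, with limma voom and with all 24 libraries in 1 fit, while the KO count of that step became 2, with Ccr1l1, with no filter, with limma voom and with all 24 libraries. At gd16.5 the KO count of 3 became 6 with limma voom, 5 with all 24 libraries in 1 fit and 5 at an adjusted p under 0.1. Leaving out each library in turn gave 17 to 21 calls in WT and 9 to 19 in KO at gd14.5, 1 in WT and 2 to 4 in KO at gd16.5, 0 to 1 in WT and 0 to 2 in KO at gd19.5, and 0 for each genotype comparison and the interaction. Of 797 values of single members under an alternative, 756 kept their direction and side of the threshold, 32 lost and 5 gained a call, and 4 changed sign, all of them Cxcr4 in KO against WT when a single library was left out (-0.21 to 0.05 at gd10.5, with 0.02 and 0.05 above 0 against -0.09 with all libraries, and -0.05 to 0.17 at gd14.5, with -0.03 and -0.05 below 0 against 0.04). The cause of these changes was not tested. On the adjusted p alone, without the fold limit, some of the 14 alternatives for a member in KO against WT fell below 0.05. At gd19.5 these were 6 for Cxcl14, 2 each for Cxcr4 and Cxcl12 and 1 for Cx3cl1. They were 2 for Ccr1l1 at gd16.5 and 1 for Cxcl12 at gd14.5. Over all genes, KO against WT had 3, 1 and 4 calls at gd14.5, gd16.5 and gd19.5, which became 44, 50 and 82 with no filter and 4, 44 and 19 with DESeq2, and the last became 9 with the block. The interaction had 0 calls and 31 with DESeq2, and the KO step to gd19.5 128, 464 with DESeq2 and 11 with the block.

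The labels do not say whether equal replicate numbers mark a shared litter or batch, and the titles and descriptions of the KO libraries number them differently. Correlations between the deviations of same-numbered WT and KO libraries ran from -0.57 to 0.48, with those at gd14.5 and gd19.5 all between 0.06 and 0.22, so the numbers were not taken as pairs. With the replicate block, 0 members were called at each stage in KO against WT and in the interaction, 19, 1 and 0 at the WT steps and 11, 3 and 0 at the KO steps. Members under 1 CPM rest on few counts, and for the 11 members with no more than 3 counts in any library a difference was not detectable at this depth.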
